A study of Mus musculus with 24 samples.

Results

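Focal adhesions are the sites where integrins on the cell surface are tied to actin filaments inside the cell. The genes described here encode the proteins of these sites, actin itself, and the proteins that assemble, cross-link and pull on its filaments. The 41 members were taken by symbol from a list of focal adhesion and actin cytoskeleton genes, and all 41 were found among the 12091 genes of the deposited table. They comprise 11 integrin-linked adaptors and scaffolds (Vcl, Tln1, Zyx, Pxn, Lasp1, Tns1, Tns3, Bcar1, Ilk, Parva and Lims1), 2 adhesion kinases (Ptk2 and Src), 3 filament crosslinkers (Flna, Actn1 and Actn4), 3 Ena/VASP genes (Vasp, Enah and Evl) and 2 actins (Actb and Actg1). The others are 3 genes of filament turnover (Cfl1, Pfn1 and Limk1), 4 of myosin II (Myh9, Myh10, Myl9 and Myl12a), 5 tropomyosin, calponin and transgelin genes (Tpm1, Tpm2, Tpm4, Cnn2 and Tagln2), 2 ERM genes (Ezr and Msn) and, as a last set of 6, Rhoa, Rac1, Cdc42, Rock1, Rock2 and Diaph1.

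The samples came from a study of pleiotrophin (PTN), a secreted growth factor encoded by Ptn, in mouse breast cancer. Tumor RNA was from 4T1 tumors in BALB/c mice and from the mammary tumors that arise spontaneously in MMTV-PyMT transgenic mice on FVB/N, and the mice had received either 3B10, a monoclonal antibody against PTN given at 15 mg/kg, or the control IgG C44. Cell RNA was from E0771 cells, of C57BL/6 origin, and from E0771-LG cells, which were derived from an E0771 lung metastasis; each line carried either an shRNA against Ptn (shPTN, a single construct) or a control vector targeting EGFP (shCtrl), in separately selected populations. Each of the 8 groups had 3 samples.

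Talin and vinculin couple integrins to actin, and zyxin, paxillin, tensins, LASP1 and p130Cas (Bcar1) are recruited to the same sites. ILK, PINCH (Lims1) and parvin form a complex on integrin tails, while FAK (Ptk2) and Src phosphorylate the adaptors. Myosin II, whose regulatory light chains are encoded by Myl9 and Myl12a, puts the filaments under tension. Many of these genes are known targets of serum response factor (SRF), which binds a DNA element called the CArG box and whose MRTF coactivators are held back by free actin monomers.

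The values were log2 values as the authors deposited them. In the 18 libraries other than 4T1 they were log2 CPM, reads scaled to the library's total, from which whole reads were recovered, at 15.63 to 21.12 M reads on genes and a median of 18.25 M. The scale of the 4T1 values was not stated and their depth was unknown. They were taken as normalized for gene length, because their difference from E0771-LG fell with log2 gene length (slope −0.655). They were set beside other groups only as ranks within a group and, in the tumor interaction, as fold changes. Each experiment was tested with limma over all genes detected in it, and a gene was called where the p-value adjusted over those genes was under 0.05. The p-values measure the spread between samples, and the methods call the 3 samples of a group biological replicates, without saying whether those of a line were separate cultures. In bulk RNA, fewer cells of a kind and less RNA per cell cannot be told apart.

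Some libraries stood apart before any comparison was made. In 4T1 tumors, C44 replicate 3 was below both other C44 replicates for 34 of 41 members (median difference −0.34), and 3B10 replicate 1 was below both other 3B10 replicates for 33 of 41 (−0.32), so each group held 1 low library. In MMTV-PyMT tumors, C44 replicate 2 was above both other C44 replicates for 28 of 41 (0.23). Among the cell lines, E0771 shPTN replicate 1 was below both others for 26 of 41 (−0.10), E0771 shPTN replicate 2 was above for 25 (0.09) and E0771-LG shCtrl replicate 2 was below for 24 (−0.11). E0771-LG shCtrl replicate 1 was low for Tln1, Myh9, Rock1, Rock2, Tns1 and Actn4. Tln1 was at 8.09, 9.11 and 9.14 log2 CPM and Myh9 at 9.08, 10.06 and 10.16 in the 3 E0771-LG shCtrl replicates.

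Members were among the most abundant messages of the cells. Divided by gene length, Actb (10.28 log2 per kilobase, above 99.9% of genes), Cfl1 (9.62), Actg1 (9.14), Flna (8.40) and Pfn1 (8.07) led in E0771 shCtrl cells, and Ilk (0.82), Myh10 (−2.87) and Enah (−6.95) came last. E0771-LG shCtrl cells had the order Actb (10.54), Actg1 (9.78), Cfl1 (9.55), Pfn1 (9.05) and Msn (8.29), with Enah (−3.38) and Myh10 (−5.36) at the end. Actg1 (9.69) and Actb (9.54) were first in MMTV-PyMT C44 tumors and Ilk (−0.90) was last. In 4T1 C44 tumors, whose values were not divided by length here, Actb (11.78) and Cfl1 (11.20) led and Enah (2.49) was last. By rank within each group, Ilk was above 22.7% of genes in E0771 shCtrl cells and 27.7% in E0771-LG shCtrl cells. In MMTV-PyMT C44 tumors it was above 7.19% of genes and in 4T1 C44 tumors, at 6.92 on their own scale, above 88.7%. For Ilk, 76.7% of the exon bases are overlapped by Taf10 on the other strand. For Rac1 it is 51.4% (Daglb), for Vcl 25.5% (Ap3m1) and for Cfl1 16.5% (Snx32), and the strandedness of the libraries was not given.

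Knockdown of the target was checked first. Ptn was at 2.90, 2.18 and 2.28 log2 CPM in E0771 shCtrl cells (128, 92 and 80 reads) and at −0.63, 0.25 and 0.53 in shPTN cells (12, 21 and 22 reads). It fell by 2.40 (SE 0.37, adjusted p = 0.00159), leaving 18.9%, with no overlap of the groups. E0771-LG cells had 3.65, 4.51 and 3.74 in shCtrl (216, 446 and 248 reads) and 1.42, 0.98 and 1.38 in shPTN (56, 35 and 45 reads). There Ptn fell by 2.71 (SE 0.28, adjusted p = 6.3e-05), to 15.3%, again with no overlap. No difference of this fall between the lines was called by the limma interaction term (−0.30, SE 0.48, adjusted p = 0.651), which does not show that the falls were equal. In tumors, where the antibody acts on the protein, Ptn had too little signal to be tested in 4T1, and in MMTV-PyMT it had 133, 127 and 201 reads with C44 and 158, 142 and 303 with 3B10 (log2 fold change 0.50, adjusted p = 1).

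Because SRF acts through the CArG box, the promoters of the members were read for it on both strands. Of 27025 mouse promoters 425 held a CArG box (1.57%), and so did 117 of the 9390 that belong to genes measured here (1.25%). Among the 34 members with a promoter entry it was in 4: Actg1, Cnn2, Myl9 and Vcl. Actb, Parva, Pxn, Ptk2, Rac1, Rock1 and Diaph1 had no entry. The SP1-type motif GGGCGG was in 28 of the 34 and in 65.9% of promoters of genes measured here, and the TEAD-type motif CATTCC was in 9 of 34 and in 11.7%. A match describes the sequence and no binding was measured.

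The 4 promoters are shown because they are all those of members in which the box was found, and capitals mark the CArG box. They are from RefSeq on GRCm38.p6, each read along the strand of its gene. Myl9 is at chr2:156775214-156775513 (plus strand), with the box 161 bases before the start of transcription, and Vcl is at chr14:20929148-20929447 (plus strand), with the box 227 bases before it. For Actg1, at chr11:120348446-120348745 (minus strand), the distance is 90 bases, and for Cnn2, at chr10:79988350-79988649 (plus strand), it is 56 bases.
Myl9: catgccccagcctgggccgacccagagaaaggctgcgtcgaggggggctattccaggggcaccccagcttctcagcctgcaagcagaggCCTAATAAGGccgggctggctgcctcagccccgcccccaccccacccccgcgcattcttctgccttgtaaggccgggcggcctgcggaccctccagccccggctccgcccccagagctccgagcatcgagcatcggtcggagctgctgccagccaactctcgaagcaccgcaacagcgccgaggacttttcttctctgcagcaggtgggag
Vcl: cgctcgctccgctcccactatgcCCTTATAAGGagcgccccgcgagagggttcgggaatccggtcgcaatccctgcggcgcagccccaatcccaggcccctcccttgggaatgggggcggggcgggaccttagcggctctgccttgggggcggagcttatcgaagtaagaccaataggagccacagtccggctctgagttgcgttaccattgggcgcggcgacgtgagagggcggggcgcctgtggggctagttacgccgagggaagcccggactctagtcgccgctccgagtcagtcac
Actg1: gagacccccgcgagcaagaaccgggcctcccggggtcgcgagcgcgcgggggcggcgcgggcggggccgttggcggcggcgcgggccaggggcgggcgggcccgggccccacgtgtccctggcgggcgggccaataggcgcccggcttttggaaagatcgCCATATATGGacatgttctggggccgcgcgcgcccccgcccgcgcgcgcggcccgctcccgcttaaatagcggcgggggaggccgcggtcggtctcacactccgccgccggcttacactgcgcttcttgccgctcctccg
Cnn2: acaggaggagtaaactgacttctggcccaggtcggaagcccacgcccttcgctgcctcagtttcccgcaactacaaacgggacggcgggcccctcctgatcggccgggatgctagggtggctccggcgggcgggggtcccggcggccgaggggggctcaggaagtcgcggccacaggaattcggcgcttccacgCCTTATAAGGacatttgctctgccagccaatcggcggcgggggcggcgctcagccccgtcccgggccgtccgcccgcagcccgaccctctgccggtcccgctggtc

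In E0771 cells, Ptn knockdown moved members in both directions. Of 40 tested, 9 were called higher in shPTN cells (22.5%, against 8.89% of all 10394 genes tested) and 7 were called lower (17.5%, against 11.7%), which made 16 called (40%, against 20.6%). The median log2 fold change was −0.02 for the members and −0.03 for all genes. The groups did not overlap for 25 members (62.5%, against 39.4% of all genes), 13 with shPTN above (against 16.8% of genes) and 12 with shPTN below (against 22.5%). Enah was too low in this line to be tested. Calls of Myl9, Tpm1, Tagln2, Cdc42, Ezr and Diaph1 held in every alternative fit and with each library left out. Tpm2 was lost only with all samples in 1 fit (adjusted p = 0.576), and each of the other 9 was lost with at least 1 library left out: 4 higher and 4 lower remained without shCtrl replicate 2 (adjusted p of those lost, 0.0508 for Actg1 to 0.111 for Msn), 3 and 4 without shCtrl replicate 3 (0.0518 for Actg1 to 0.15 for Zyx), and 3 and 5 without shPTN replicate 3 (0.0546 for Parva to 0.153 for Zyx). Without shCtrl replicate 1 there were 6 and 7 (0.0502 for Actn1, 0.0837 for Zyx and 0.0736 for Rock2), and without shPTN replicate 2 there were 7 and 8 (0.0536 for Zyx and 0.071 for Rock2 lost, 0.0429 for Src gained).

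**Figure D1:**
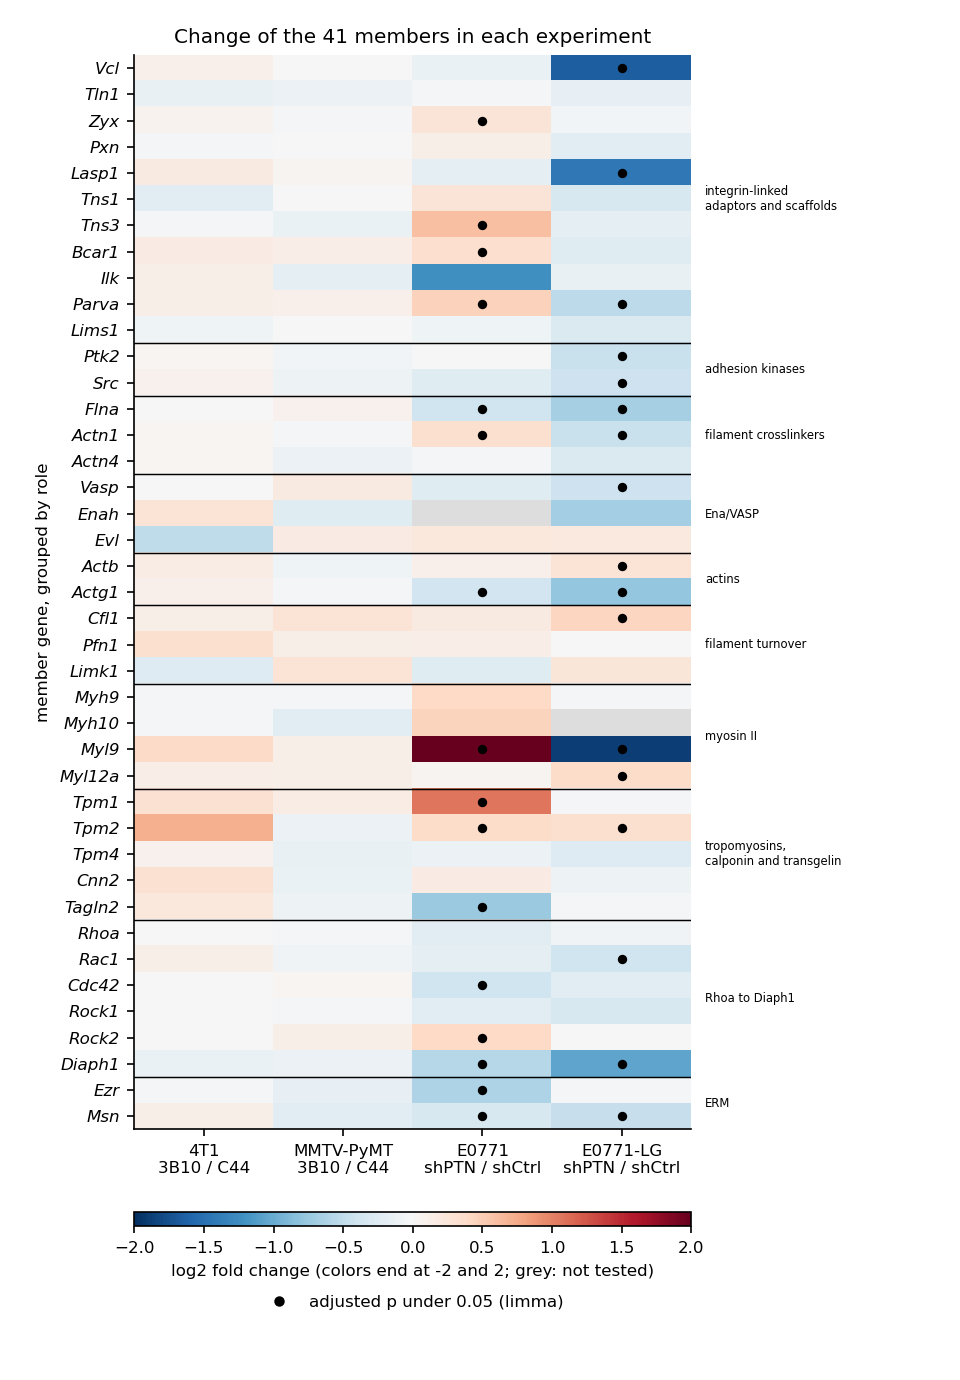
Log2 fold change of each of the 41 members (vertical axis, grouped by role) in the 4 experiments (horizontal axis), in color from −2 to 2, with grey for not tested and a dot for an adjusted p under 0.05. Myl9 is the strongest square in both cell lines, at 2.46 in E0771 and −1.89 in E0771-LG, and the tumor columns hold no dot.

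Myl9 rose most. Myl9, the regulatory light chain of myosin II, was at 2.26, 2.16 and 2.95 log2 CPM in shCtrl (82, 91 and 128 reads) and at 4.73, 5.03 and 4.98 in shPTN (512, 591 and 494 reads). Every shPTN sample was above every shCtrl sample, and Myl9 rose by 2.46 (SE 0.21, adjusted p = 5.27e-05), or 5.5-fold. Tpm1, which encodes a tropomyosin that lies along the filament, was at 8.95, 8.39 and 8.47 in shCtrl and 9.55, 9.84 and 9.61 in shPTN. It rose by 1.06 (SE 0.14, adjusted p = 0.000852), or 2.09-fold, with no overlap, although shCtrl replicate 1 stood above the other controls. Tpm2 was at 6.65, 6.61 and 6.71 and 7.06, 7.09 and 6.94, and its rise of 0.37 (SE 0.08, adjusted p = 0.00992) also separated all samples. Myh9, the heavy chain of the main nonmuscle myosin, had an estimate of 0.39 that missed the threshold (adjusted p = 0.0696) and passed it without shPTN replicate 1 (0.53, adjusted p = 0.00747).

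Several adaptors rose as well. Tns3, a tensin, was at 4.62, 4.43 and 4.20 in shCtrl and 4.88, 5.12 and 5.04 in shPTN, and all 3 shPTN values were the higher ones, with a rise of 0.60 (SE 0.14, adjusted p = 0.0122). Parva, the parvin of the ILK complex, was at 7.22, 6.91 and 7.01 and 7.34, 7.70 and 7.46. It rose by 0.45 (SE 0.11, adjusted p = 0.0168), again without overlap. Actn1, an actinin that cross-links filaments at adhesions, was at 8.58, 8.55 and 8.51 and 8.71, 8.99 and 8.90. The controls were within a narrow band and the 3 shPTN samples lay above it, a rise of 0.32 (SE 0.09, adjusted p = 0.0248). Bcar1 (0.34, adjusted p = 0.0195) and Zyx (0.26, adjusted p = 0.0352) were the other adaptors called higher. Rock2 was at 8.53, 8.59 and 8.39 in shCtrl and 8.63, 9.09 and 8.97 in shPTN, and it rose by 0.39 (SE 0.12, adjusted p = 0.0354) with the lowest shPTN sample close above the controls. That call was lost when any single library other than shPTN replicate 1 was left out, at adjusted p = 0.0703 to 0.141 (0.0736 without shCtrl 1, 0.0703 without shCtrl 2, 0.141 without shCtrl 3, 0.071 without shPTN 2 and 0.14 without shPTN 3).

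Vcl and Tln1, which carry the integrin to actin link, showed no call in E0771. Vcl was at 7.03, 7.29 and 7.03 in shCtrl and 6.80, 7.13 and 7.02 in shPTN, and the groups overlapped (−0.13, SE 0.11, adjusted p = 0.421). Tln1 was at 9.18, 9.35 and 9.24 and 9.04, 9.39 and 9.28, with overlap (−0.02, SE 0.10, adjusted p = 0.915). Ilk had the lowest estimate of any member (−1.23, SE 0.65, adjusted p = 0.219) from 99, 72 and 92 reads in shCtrl and 82, 11 and 50 in shPTN, with overlapping groups.

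The 7 members that fell in E0771 included both ERM genes. Ezr, which ties filaments to the cell membrane, was at 8.44, 8.64 and 8.59 in shCtrl and 7.96, 7.88 and 8.0 in shPTN. Each shPTN value was below each shCtrl value, and ezrin RNA fell by 0.61 (SE 0.08, adjusted p = 0.00084), to 65.5%. Msn, its relative moesin, fell by 0.33 (SE 0.09, adjusted p = 0.025) from 10.60, 10.82 and 10.69 to 10.28, 10.43 and 10.42, with no overlap. Tagln2, a transgelin, was at 8.09, 8.41 and 8.39 and 7.75, 7.42 and 7.51. Its fall of 0.74 (SE 0.11, adjusted p = 0.0015), to 60.1%, was the largest of a called member in this line and left no overlap. Diaph1, a formin that extends filaments, went from 7.42, 7.60 and 7.44 to 6.75, 7.10 and 6.88. It fell by 0.58 (SE 0.10, adjusted p = 0.00332), to 67%, with every shPTN sample lower.

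Flna, Cdc42 and Actg1 also fell in E0771. Flna, a crosslinker, was at 11.61, 11.65 and 11.66 in shCtrl and 11.06, 11.41 and 11.24 in shPTN, all 3 lower, and fell by 0.40 (SE 0.10, adjusted p = 0.0154). Cdc42 was at 8.74, 8.74 and 8.76 and 8.40, 8.37 and 8.28. The tight replicates did not overlap, and this GTPase gene fell by 0.40 (SE 0.08, adjusted p = 0.00475), to 76%. The actins parted: Actg1 was at 10.52, 10.59 and 10.55 in shCtrl and 10.23, 10.04 and 10.25 in shPTN, while Actb was at 11.74, 11.76 and 11.63 and 11.68, 12.05 and 11.70. Actg1 fell by 0.38 (SE 0.09, adjusted p = 0.0109) with no overlap, and Actb, whose samples overlapped, was not called (0.10, SE 0.11, adjusted p = 0.532).

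In E0771-LG cells, knockdown was followed mainly by lower values of the members. Of 40 tested, 13 were called lower (32.5%, against 22.1% of all 10405 genes tested) and 4 higher (10%, against 24.3%). The 17 called in all (42.5%) were close to the share of all genes (46.4%). Their median log2 fold change was −0.24, against 0.05 for all genes, and 32 of 40 estimates were below 0 (80%, against 46.2% of all genes). The groups did not overlap for 23 members (57.5%, against 57.1% of all genes), 18 of them with shPTN below (26.7% of genes) and 5 above (30.5%). Of the 11 adaptors and scaffolds, Vcl, Lasp1 and Parva were called lower and 8 were not called, and the estimates of all 11 ran from −1.66 to −0.06. Myh10 was too low to be tested. Without shCtrl replicate 1, 19 members were lower and 2 higher: Tln1 (−0.51, adjusted p = 0.000643), Tns1 (−0.65, 0.00765), Actn4 (−0.44, 0.000589), Myh9 (−0.36, 0.00211), Rock1 (−0.66, 0.000346) and Rock2 (−0.30, 0.00888) then joined the lower members. Without shPTN replicate 2, 11 were lower and 1 higher, with Src (adjusted p = 0.0567), Rac1 (0.0505), Actb (0.0686), Myl12a (0.13) and Tpm2 (0.168) lost, and without shPTN replicate 3 Actb (0.0728), Myl12a (0.0991) and Tpm2 (0.105) were lost, which left 1 higher.

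**Figure D2:**
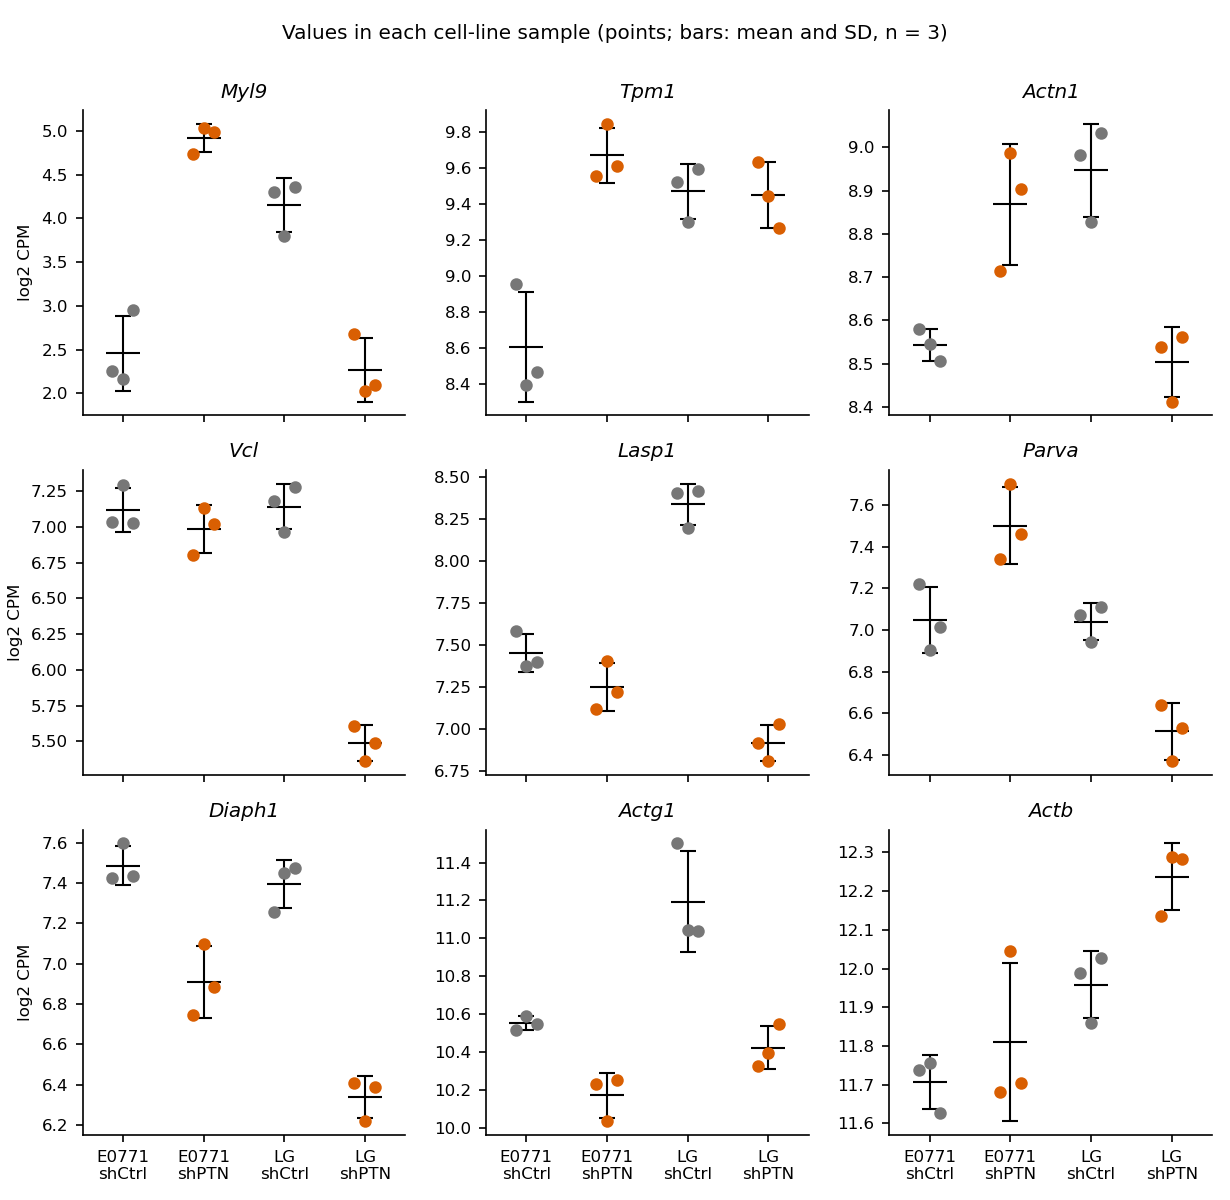
Values in log2 CPM (vertical axes) of 9 members in the 12 cell samples (points), grouped by line and construct, with bars for the mean and SD of 3 samples. Myl9 is high in E0771 shPTN and E0771-LG shCtrl cells, and Vcl stands apart in E0771-LG shPTN cells alone, at 5.61, 5.36 and 5.49.

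Vcl and Lasp1 had the largest falls after Myl9. Vcl was at 7.18, 6.97 and 7.28 log2 CPM in E0771-LG shCtrl cells and 5.61, 5.36 and 5.49 in shPTN cells. Vinculin RNA was lower in 3 of 3 shPTN samples without overlap, and it fell by 1.66 (SE 0.12, adjusted p = 1.54e-05), to 31.7%. Lasp1, a LIM and SH3 protein of adhesions, was at 8.41, 8.20 and 8.42 and 6.92, 6.81 and 7.03. It fell by 1.42 (SE 0.10, adjusted p = 1.54e-05), to 37.3%, with all samples parted. Parva was at 7.07, 6.94 and 7.11 in shCtrl and 6.64, 6.37 and 6.53 in shPTN, and fell by 0.53 (SE 0.10, adjusted p = 0.0023), the 3 shPTN samples being lowest, a call lost with the replicate block and a length and GC correction. Tln1 was at 8.09, 9.11 and 9.14 in shCtrl and 8.51, 8.55 and 8.77 in shPTN, and its groups overlapped through the low shCtrl replicate 1 (−0.17, SE 0.30, adjusted p = 0.68). Without that library, as stated above, Tln1 was called lower.

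Both adhesion kinases were called lower in E0771-LG. Ptk2, which encodes FAK, was at 7.46, 7.58 and 7.52 in shCtrl and 7.05, 7.07 and 7.11 in shPTN, with no overlap and a fall of 0.44 (SE 0.09, adjusted p = 0.00238) that kept its call in 15 of 16 settings and lost it with the replicate block and a length and GC correction. Src was at 6.33, 6.26 and 6.43 and 6.05, 5.80 and 5.96, all 3 shPTN values below the controls, and fell by 0.41 (SE 0.11, adjusted p = 0.00992), a call kept in 14 of 16 and lost in 1 fit and without shPTN replicate 2. Among the crosslinkers Flna, at 11.27, 11.23 and 11.46 in shCtrl and 10.56, 10.60 and 10.81 in shPTN, fell by 0.67 (SE 0.09, adjusted p = 0.000334), to 62.9%, and did not overlap. Actn1 was at 8.98, 8.83 and 9.03 and 8.54, 8.41 and 8.56, and its fall of 0.44 (SE 0.09, adjusted p = 0.00287) also separated the groups. Vasp, an elongation factor for filaments, was at 8.19, 8.43 and 8.42 and 7.77, 7.99 and 8.06. It fell by 0.41 (SE 0.11, adjusted p = 0.0108), with the shPTN samples lowest.

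Myosin light chains went opposite ways in E0771-LG. Myl9 was at 4.30, 3.80 and 4.36 in shCtrl (340, 273 and 381 reads) and 2.68, 2.03 and 2.10 in shPTN (135, 73 and 74 reads). Every shPTN sample was the lower one, and the gene fell by 1.89 (SE 0.24, adjusted p = 0.000185), to 27.1%. Myl12a was at 6.26, 6.75 and 6.63 and 6.84, 6.98 and 6.92, and rose by 0.36 (SE 0.13, adjusted p = 0.0366) with no overlap. This call was lost on leaving out any library except shCtrl replicate 2 (adjusted p = 0.0631 without shCtrl 1, 0.0583 without shCtrl 3, 0.0569 without shPTN 1, 0.13 without shPTN 2 and 0.0991 without shPTN 3), and it was lost with no filter and with all samples in 1 fit. Tpm2 was at 6.47, 6.56 and 6.71 in shCtrl and 6.73, 7.07 and 6.92 in shPTN, and rose by 0.33 (SE 0.11, adjusted p = 0.0372) with the lowest shPTN sample only just above the controls; its call was also lost without shCtrl 1 (0.0593) and shCtrl 2 (0.0594), and with no filter, under median-of-ratios scaling, in 1 fit and with a replicate block and a length and GC correction, so that 8 of 16 settings kept it. Tpm1, at 9.52, 9.30 and 9.59 and 9.63, 9.44 and 9.27, overlapped and was not called (−0.02, SE 0.11, adjusted p = 0.891).

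The actins parted in E0771-LG as well, and neither had a called difference between the lines (Actg1 −0.39, adjusted p = 0.0751, Actb 0.17, 0.353). Actg1 was at 11.50, 11.04 and 11.04 in shCtrl and 10.33, 10.40 and 10.55 in shPTN, without overlap, and fell by 0.77 (SE 0.12, adjusted p = 0.000877), to 58.6%. Actb was at 11.99, 11.86 and 12.03 and 12.14, 12.29 and 12.28, each shPTN value being above each control, and rose by 0.28 (SE 0.08, adjusted p = 0.0138), or 1.21-fold. Cfl1, the cofilin that severs filaments, was at 11.03, 11.02 and 11.13 in shCtrl and 11.48, 11.53 and 11.46 in shPTN. It rose by 0.43 (SE 0.07, adjusted p = 0.000914), or 1.35-fold, in 3 of 3 samples, and was the one higher call to hold in every alternative fit and left-out library. Exons of Actg1 share 37.4% of their short stretches with other loci, and how reads with several matches were counted was not given.

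Diaph1, Rac1 and the ERM gene Msn fell as well. Diaph1 was at 7.26, 7.45 and 7.48 in shCtrl and 6.41, 6.22 and 6.39 in shPTN, with every shPTN sample lower, and fell by 1.06 (SE 0.10, adjusted p = 5.42e-05), to 48.1%. Rac1, at 8.93, 8.55 and 8.63 and 8.31, 8.26 and 8.33, fell by 0.40 (SE 0.11, adjusted p = 0.01) without overlap. Msn, at 10.98, 10.90 and 10.98 and 10.44, 10.49 and 10.54, fell by 0.47 (SE 0.08, adjusted p = 0.000705), to 72.4%, also without overlap. Ezr was at 8.14, 8.39 and 8.40 and 8.21, 8.27 and 8.37 and was not called (−0.02, SE 0.10, adjusted p = 0.87).

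The knockdown comparisons shared no samples, and 39 members were tested in both. Lower in both lines were Actg1, Diaph1, Flna and Msn, which are 57.1% of the 7 members lower in E0771 and 30.8% of the 13 lower in E0771-LG (all genes: 40% and 21.4%). Tpm2 was higher in both (11.1% and 25%, all genes 23.5% and 8.46%), on an E0771-LG call kept in 8 of 16 settings. Actn1, Myl9 and Parva were higher in E0771 and lower in E0771-LG, 33.3% and 23.1% of the lists (all genes 21.5% and 8.41%). No member was lower in E0771 and higher in E0771-LG, where all genes had 11.8% and 5.79%.

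Whether the effect differed between the lines was tested with the limma interaction term. Of 41 members, 15 differed (36.6%, against 34% of 10600 genes), so the share was near that of all genes, but 12 had a lower effect in E0771-LG (29.3%, against 15.7%) and 3 a higher one (7.32%, against 18.3%). The median term was −0.25 for members and 0.08 for all genes. Myl9 had the largest (−4.34, SE 0.34, adjusted p = 1.66e-06), because the gene rose in E0771 and fell in E0771-LG. Vcl (−1.52, SE 0.16, adjusted p = 2.46e-05) and Lasp1 (−1.22, SE 0.14, adjusted p = 4.35e-05) fell in E0771-LG and were not called in E0771, where Lasp1 was at 7.59, 7.38 and 7.40 in shCtrl and 7.12, 7.41 and 7.22 in shPTN with overlap. Without E0771-LG shCtrl replicate 1, 17 terms were lower and 5 higher, with Tln1 (−0.49), Tns1 (−0.90), Actn4 (−0.41), Myh9 (−0.75), Rock2 (−0.69), Rhoa (0.31) and Cdc42 (0.31) gained.

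**Figure D3:**
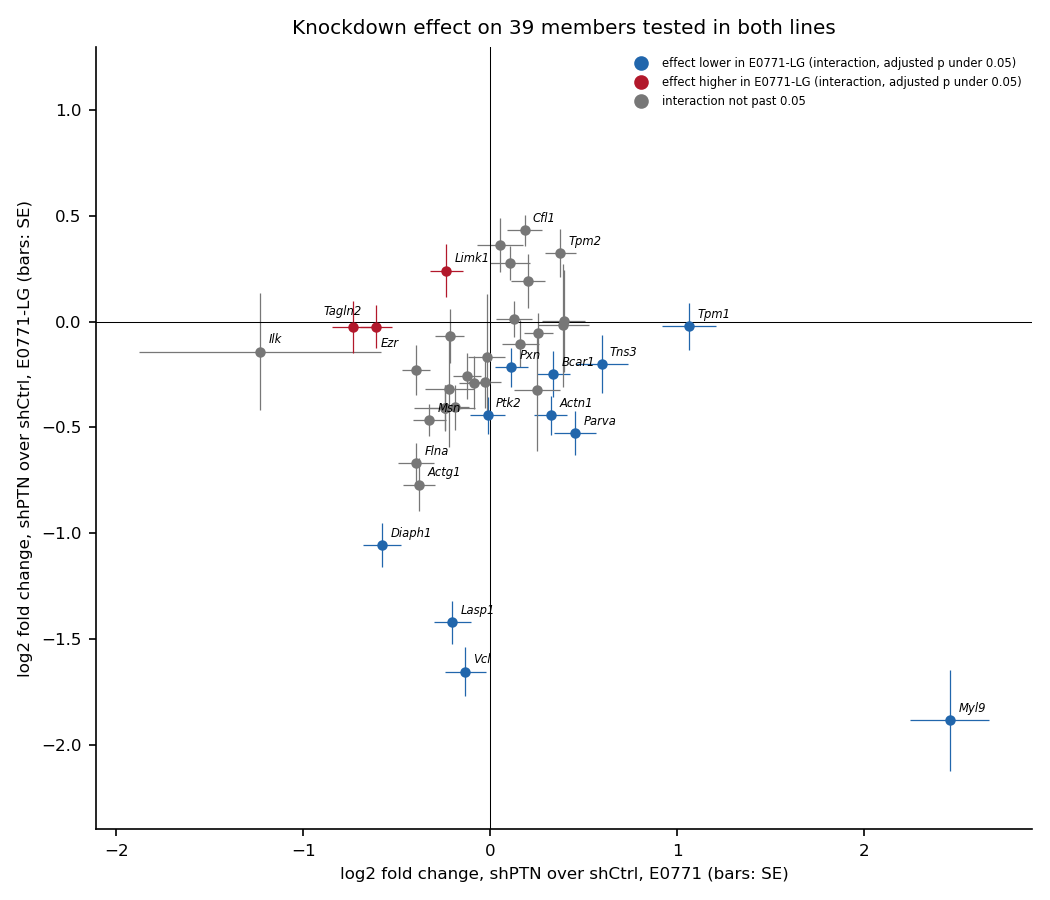
Log2 fold change of 39 members after knockdown in E0771 (horizontal axis) and in E0771-LG (vertical axis), with bars for SE and colors for the interaction term. Myl9 lies alone at the lower right (2.46 and −1.89), and Vcl and Lasp1 lie near 0 on the horizontal axis and low on the vertical one (−1.66 and −1.42).

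The other called terms came from several roles. Besides Vcl and Lasp1, the adaptors Parva (−0.98, adjusted p = 0.000483), Tns3 (−0.80, 0.00733), Bcar1 (−0.59, 0.00555) and Pxn (−0.33, 0.0469) had a lower effect in E0771-LG, so 6 of the 11 adaptors did, against 15.7% of all genes. Tpm1 (−1.08, 0.0014), Actn1 (−0.77, 0.000581), Diaph1 (−0.48, 0.0212) and Ptk2 (−0.43, 0.0164) also differed downward. Tagln2 (0.71, 0.00812), Ezr (0.59, 0.0037) and Limk1 (0.48, 0.0171) differed upward, as Tagln2 and Ezr fell only in E0771. Tagln2 in E0771-LG was at 8.45, 8.07 and 8.23 in shCtrl and 8.01, 8.36 and 8.30 in shPTN, an overlap. Pxn kept its call in 10 of 22 alternative fits and left-out libraries (adjusted p up to 0.124, without E0771 shCtrl replicate 1) and Diaph1 in 15 of 22 (up to 0.0625 with a library left out, E0771-LG shPTN replicate 2, which also ended the call of Limk1, 0.0519). Ptk2 kept its call in 19 of 22 and lost it under quantile normalization, in 1 fit and with the block and correction. Limk1 was lost under quantile normalization and in 1 fit as well, Tns3 in 1 fit and Tagln2 with the block and correction. No term was called for Tln1 (−0.15, adjusted p = 0.75).

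Enah differed too, on few reads. It had 2, 3 and 3 reads in E0771 shCtrl and 21, 17 and 12 in E0771 shPTN, and 41, 30 and 43 in E0771-LG shCtrl and 30, 20 and 22 in shPTN. All E0771 shPTN samples were above all controls, at 6.4 times the reads per library size (95% counting interval 3.01 to 15.6), and in E0771-LG the shPTN samples were not called (−0.68, SE 0.39, adjusted p = 0.168). The interaction term was −3.14 (SE 0.64, adjusted p = 0.00223), and −1.18 with a pseudocount of 1. Enah is counted among the 12 lower terms although E0771 samples did not reach the filter by themselves; it was called with no filter (adjusted p = 0.00105) and not tested with the stricter one.

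Control cells of the lines differed in many members before knockdown. Between E0771-LG shCtrl and E0771 shCtrl, 13 of 41 members were higher in E0771-LG (31.7%, against 19.2% of 10411 genes) and 6 lower (14.6%, against 35.3%). The 19 called (46.3%) stood beside 54.5% of all genes, and the groups did not overlap for 23 (56.1%, against 63.6%), 13 above (23.4% of genes) and 10 below (40.2%). Their median log2 fold change was 0.02 and that of all genes −0.15. This comparison uses the shCtrl samples of both knockdown comparisons, so its values are only set beside theirs. Lists of cell-type genes also differed between the control lines and are given below. Rescaling removed the shift of all genes, and under median-of-ratios scaling Myl12a (−0.29, adjusted p = 0.0874) and Flna (−0.17, 0.172) were no longer called, while quantile normalization gave 10 lower members. Leaving out E0771-LG shCtrl replicate 3 gave 8 higher, with Actb (adjusted p = 0.108), Bcar1 (0.0554), Msn (0.102) and Vasp (0.0722) lost. Leaving out E0771 shCtrl replicate 1 gave 4 lower, with Myl12a lost (0.0724), and E0771 shCtrl replicate 3 gave 3 lower, with Flna (0.0549) and Myl12a (0.0832) lost. Myh10 was not tested without any 1 of the E0771 libraries, nor Enah without any 1 of the E0771-LG libraries, since they no longer reached the filter. Without E0771-LG shCtrl replicate 1, 9 were lower, with Lims1 (0.00656), Rac1 (0.0148) and Rock2 (0.00782) gained.

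The 13 members higher in E0771-LG came from 8 of the 10 roles. Myl9 was at 2.26, 2.16 and 2.95 in E0771 and 4.30, 3.80 and 4.36 in E0771-LG controls, without overlap, a difference of 1.70 (SE 0.25, adjusted p = 0.000294), or 3.24-fold. Tpm1 differed by 0.86 (SE 0.15, adjusted p = 0.00101), from 8.95, 8.39 and 8.47 to 9.52, 9.30 and 9.59, all E0771-LG samples being higher. Pfn1, the profilin that feeds monomers to filaments, was at 9.41, 9.20 and 9.41 and 10.44, 10.23 and 10.29, with no overlap, and was 1.97-fold higher in E0771-LG (0.98, SE 0.10, adjusted p = 3.41e-05). Enah, at −2.79, −2.54 and −2.25 and 1.26, 0.64 and 1.23, was near 0 in E0771 and reached the filter through E0771-LG alone. All its samples were parted, with a read ratio of 13.9 (95% counting interval 6.84 to 33.1), and its difference (3.57, SE 0.56, adjusted p = 0.000446) was 1.41 with a pseudocount of 1, called with no filter (adjusted p = 0.000455) and not tested with the stricter one.

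Of the 11 adaptors 4 were higher, 1 lower and 6 not called, and both actins were higher (of all genes, 19.2% higher and 35.3% lower). Tns3 was at 4.62, 4.43 and 4.20 in E0771 and 5.69, 5.50 and 5.87 in E0771-LG, with no overlap, 2.41-fold higher (1.27, SE 0.15, adjusted p = 7.35e-05). Lasp1, at 7.59, 7.38 and 7.40 and 8.41, 8.20 and 8.42, was 1.85-fold higher (0.89, SE 0.10, adjusted p = 7.34e-05), every E0771-LG sample being above. Actg1 (0.64, adjusted p = 0.0017) and Zyx (0.64, 0.000408) were each 1.56-fold higher. Smaller differences were called for Actn1 (0.40, 0.00402), Vasp (0.38, 0.0191), Bcar1 (0.32, 0.0315), Msn (0.25, 0.0369) and Actb (0.25, 0.032). Actb kept its call in 8 of 16 settings and Msn in 9, and both lost it under quantile normalization, without robust eBayes and with the replicate block. Vasp and Bcar1 each kept theirs in 12 of 16. Bcar1 was lost without E0771 shCtrl 2 or 3 or E0771-LG shCtrl 1 or 3 (adjusted p up to 0.11). Vasp was lost without E0771 shCtrl 1 or 2 or E0771-LG shCtrl 3 (up to 0.0809), and in 1 fit. Vcl did not separate the control lines (0.02, SE 0.12, adjusted p = 0.873), with 7.03, 7.29 and 7.03 in E0771 and 7.18, 6.97 and 7.28 in E0771-LG.

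Lower in E0771-LG were 6 members. Limk1, the kinase that switches cofilin off, was at 6.72, 6.93 and 6.88 in E0771 and 4.70, 4.60 and 4.68 in E0771-LG. The samples were far apart, and Limk1 stood at 22% of E0771 (−2.18, SE 0.10, adjusted p = 7.27e-07). Evl was at 5.69, 5.68 and 5.74 and 4.91, 4.78 and 4.82, all lower in E0771-LG (−0.86, SE 0.11, adjusted p = 0.000101). Tns1, at 6.16, 6.65 and 6.49 and 4.42, 5.69 and 5.09, was at 38.8% (−1.37, SE 0.31, adjusted p = 0.00951) with a wide spread in E0771-LG and no overlap. Myh10 had 29, 28 and 20 reads in E0771 and 1, 12 and 5 in E0771-LG, a ratio of 0.229 (95% counting interval 0.129 to 0.386) without overlap (−2.50, SE 0.75, adjusted p = 0.017). It reached the filter through E0771 alone, with a difference of −0.90 under a pseudocount of 1, and was called with no filter and not tested with the stricter one. Myl12a, at 7.07, 6.81 and 7.07 and 6.26, 6.75 and 6.63, was lower in 3 of 3 (−0.44, SE 0.14, adjusted p = 0.0207), as was Flna, at 11.61, 11.65 and 11.66 and 11.27, 11.23 and 11.46 (−0.32, SE 0.09, adjusted p = 0.0137).

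Members that were high in E0771-LG controls can be read beside their response there. Myl9 (1.70), Lasp1 (0.89), Actg1 (0.64), Actn1 (0.40), Vasp (0.38) and Msn (0.25) were higher in E0771-LG than in E0771 controls and fell with knockdown in E0771-LG. They are 6 of the 13 higher members (46.2%, against 35.9% of 2004 genes higher in the control comparison). Actb was higher and rose (7.69%, against 14.4%), and Bcar1, Enah, Pfn1, Tns3, Tpm1 and Zyx were not called on knockdown (46.2%, against 49.8%). Both comparisons use the E0771-LG shCtrl samples and are not independent. After knockdown, Myl9 in E0771-LG (2.68, 2.03 and 2.10) overlapped E0771 controls (2.26, 2.16 and 2.95), and so did Actn1 (8.54, 8.41 and 8.56 beside 8.58, 8.55 and 8.51). Actg1 overlapped them too, whereas Lasp1 and Msn were below every E0771 control sample. Mean Vasp was 6.55 log2 per kilobase in E0771-LG shPTN cells and 6.58 in E0771 controls. Vcl was different, since the controls of the lines were alike and E0771-LG shPTN cells were below all other groups. Lasp1, which was higher in E0771-LG controls, was also below all other groups in E0771-LG shPTN cells.

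Position on the chromosomes was read beside these lists. In E0771-LG knockdown, chromosome 18, which carries Diaph1 and Rock1, had a median log2 fold change of −0.47 over 258 genes, with 144 lower (55.8%) and 9 higher. In E0771 knockdown 59 of 260 genes there were lower (22.7%), with a median of −0.13. Between the control lines, chromosome 11 had a median of 0.25, with 369 of 888 genes higher and 147 lower, and it carries Actg1, Lasp1, Pfn1 and Tns3, all higher, and Myh10, which was lower. Chromosome 17, with Myl12a, which was lower, and Ezr, which was not called, had a median of −0.47. The X chromosome, with Flna, which was lower, and Msn, which was higher, had a median of −0.38. The part that chromosome copy number has in these values was not tested.

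**Figure D4:**
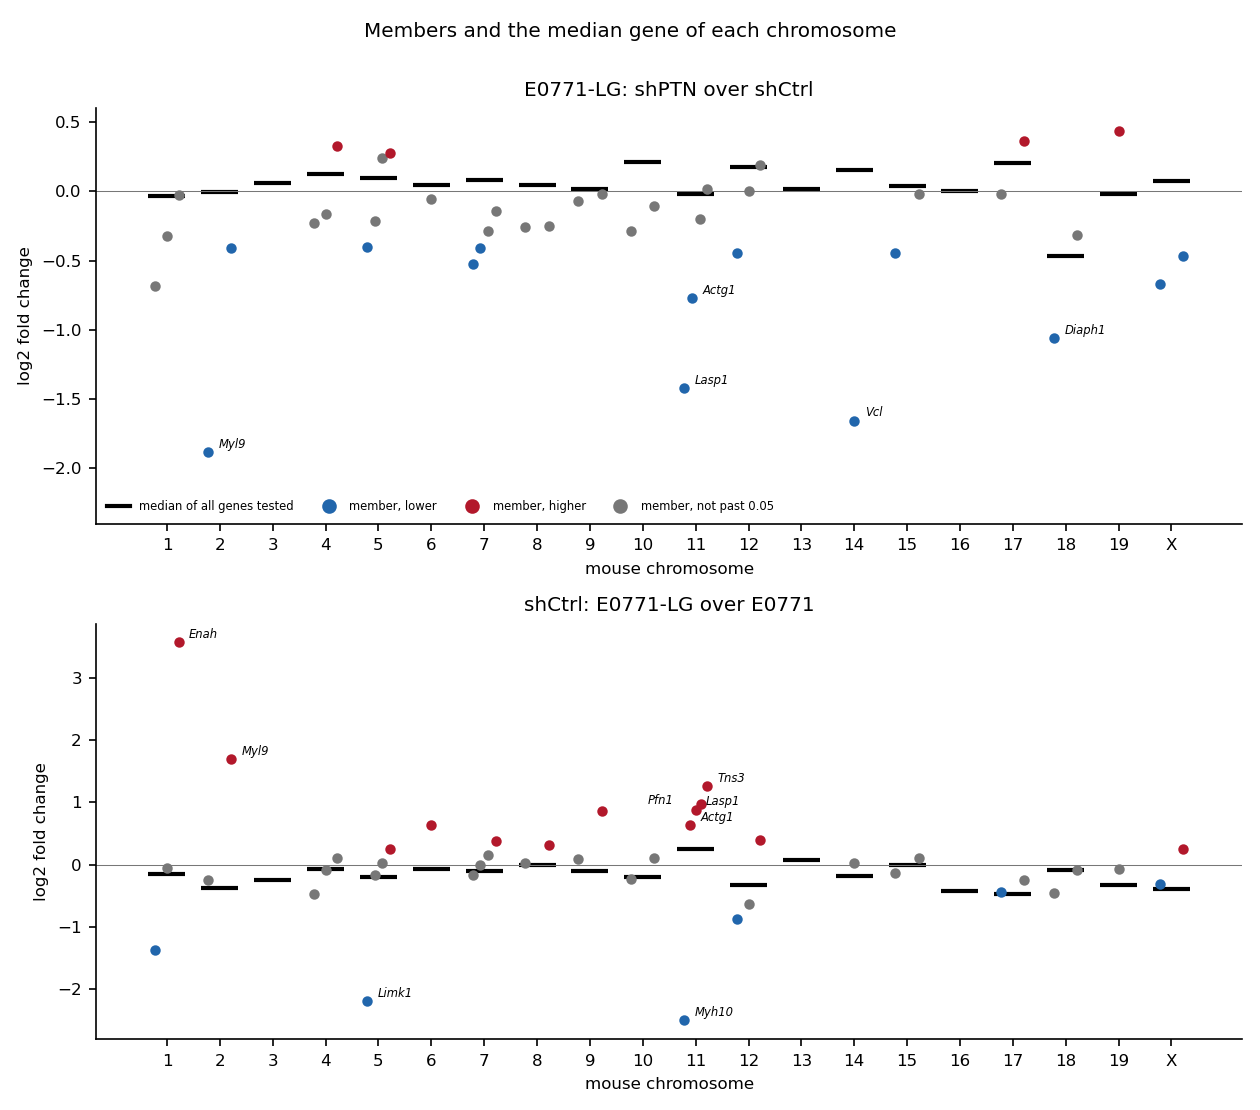
Log2 fold change (vertical axis) of each member (points) on its chromosome (horizontal axis), with the median of all genes tested as bars, in E0771-LG knockdown and between control lines. Vcl (−1.66) and Lasp1 (−1.42) lie far from the medians of their chromosomes, whereas Diaph1 (−1.06) lies on chromosome 18, whose median is −0.47.

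SRF, its coactivators and Scai were read because members with a CArG box moved. In E0771, 0 of 4 genes were called by limma (1 at an unadjusted p under 0.05). In E0771-LG, Mrtfa was at 6.11, 6.15 and 6.30 in shCtrl and 5.71, 5.37 and 5.71 in shPTN, with no overlap, and fell by 0.59 (SE 0.12, adjusted p = 0.00298), a different effect from that in E0771 (−0.75, SE 0.16, adjusted p = 0.00285). Mrtfb was at 5.37, 5.71 and 5.96 and 5.37, 4.83 and 5.13 and fell by 0.57 (SE 0.18, adjusted p = 0.0211), although shPTN replicate 1 touched the lowest control and the call was lost without shCtrl 3 (adjusted p = 0.0886), shPTN 2 (0.1) or shPTN 3 (0.0595). Srf itself was not called (−0.19, adjusted p = 0.142). Of the members with the box, Myl9, Vcl and Actg1 fell in E0771-LG and Cnn2 was not called (−0.10, adjusted p = 0.468), and in E0771 Myl9 rose, Actg1 fell and Vcl and Cnn2 were not called. Between the control lines, Srf (−0.32, SE 0.10, adjusted p = 0.0205), Mrtfb (−1.02, SE 0.15, adjusted p = 0.000341) and Scai, which encodes a suppressor of the MRTFs (−1.36, SE 0.16, adjusted p = 9.21e-05), were lower in E0771-LG.

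Some contractile genes outside the members were called in the direction of Myl9. Of the smooth muscle and myofibroblast genes, 5 of 7 tested were higher after knockdown in E0771 (71.4%, against 8.89% of all genes), and their summed level went from 134, 125 and 131 CPM to 243, 322 and 263. Acta2, smooth muscle actin, rose by 2.38 (SE 0.22, adjusted p = 0.000226) and Actg2 by 3.39 (SE 0.63, adjusted p = 0.00404), and Des (1.32), Lmod1 (1.78) and Synpo2 (0.86) were also higher, while Smtn was not called (−0.06). Of the 5, Actg2 (0.204 CPM in shCtrl, 1.95 in shPTN) and Lmod1 averaged under 1 CPM in shCtrl cells. They could reach the filter only with the shPTN samples, where they were high. In E0771-LG 3 of 7 were lower (42.9%, against 22.1% of all genes): Acta2 fell by 2.27 (SE 0.29, adjusted p = 0.000463), Cnn1 by 2.24 (SE 0.36, adjusted p = 0.000656) and Actg2 by 0.70 (SE 0.24, adjusted p = 0.0332), with sums of 172, 169 and 192 in shCtrl and 140, 152 and 152 in shPTN. Cnn1 averaged 0.933 CPM in E0771-LG shPTN cells and could reach the filter only with the shCtrl samples, where it was high. Des (0.68) and Smtn (0.19) had estimates above 0 in E0771-LG and were not called. The effect on Acta2 differed between the lines (−4.64, SE 0.42, adjusted p = 3.02e-05).

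Markers of other cell types were read in the same cells, in lists of 2 to 7 tested genes. Of all genes, 8.89% were called higher and 11.7% lower in E0771, and 24.3% higher and 22.1% lower in E0771-LG. Keratin 8 was present, but Krt19, Cldn3, Cldn4 and Cdh1 were under 1 CPM, as were the leukocyte genes Ptprc, Tyrobp and Cd3e. Epithelial genes did not separate E0771 groups (102, 121 and 112 CPM in shCtrl, 123, 104 and 115 in shPTN; 0 of 3 called by limma) and were higher in E0771-LG shPTN cells (160, 207 and 168, then 430, 574 and 525; 4 of 4), led by Krt18 (3.00, SE 0.32, adjusted p = 8.07e-05). Krt18 averaged under 1 CPM in E0771-LG shCtrl cells and could reach the filter only with the shPTN samples. The most abundant gene, Krt8, rose by 1.57. Fibroblast genes were higher in E0771 (74.8, 101 and 86.5, then 331, 294 and 331; 5 of 5), led by Col3a1 (2.83, SE 0.14, adjusted p = 2.02e-06), and lower in E0771-LG (92.5, 146 and 108, then 58.6, 66.4 and 74.3), where Col1a1 fell by 4.68 (SE 0.46, adjusted p = 5.42e-05) and 1 of 6 was higher (16.7%) and 2 lower (33.3%). Col1a1 averaged under 1 CPM in E0771-LG shPTN cells and could reach the filter only with the shCtrl samples. Col1a2, among the 5 higher in E0771, averaged 0.925 CPM in E0771 shCtrl cells. Dcn, the 1 gene higher in E0771-LG, averaged 0.966 CPM in E0771-LG shCtrl cells. Both could reach the filter only with the shPTN samples. Leukocyte genes went from 53.6, 71.8 and 60.1 to 137, 103 and 116 in E0771 (4 of 7 higher, 57.1%) and from 201, 213 and 196 to 221, 265 and 283 in E0771-LG (3 higher and 1 lower of 7, 42.9% and 14.3%), where Lcp1 was the most abundant in shPTN (147 CPM). Lcp1, Coro1a and Itgb2 of this list are counted again below among filament proteins and integrins, and Mylk of the smooth muscle list among myosin regulators. Endothelial genes overlapped in E0771 (217, 239 and 221, then 216, 237 and 232; 1 of 4 higher, 25%). In E0771-LG their sum was lower (236, 223 and 216, then 159, 171 and 164), but most of it was Eng (212 CPM in shCtrl, 145 in shPTN), the 1 gene of 6 called lower (16.7%), and 2 were higher (33.3%; Esam, 2.51, and Flt1, 0.90). Skeletal muscle genes went from 5.97, 7.39 and 6.86 to 15.1, 14.1 and 15.4 in E0771, mostly through Actn3 (4.38 to 12.3 CPM), the 1 of 2 tested genes called higher (Mylpf −0.66, not called). In E0771-LG their sums overlapped (5.38, 4.08 and 2.96, then 3.31, 3.43 and 3.5). By limma 1 of 2 tested genes was lower there (Acta1, −1.20, adjusted p = 0.0292) and 0 were higher. Between control lines, sums in E0771-LG were 3.28 times those in E0771 for leukocyte, 1.59 for epithelial and 1.37 for smooth muscle genes, without overlap. The limma calls went both ways. Of 7 leukocyte genes 3 were higher (42.9%) and 3 lower (42.9%), with a median of −0.29. Of 3 epithelial genes 2 were higher (66.7%) and 1 lower (33.3%), and of 7 smooth muscle genes 4 (57.1%) and 1 (14.3%). Of all genes, 19.2% were higher and 35.3% lower. Actg2 and Cnn1 averaged 0.204 and 0.483 CPM in E0771 controls and could reach the filter only with the E0771-LG samples. Skeletal muscle sums (0.614) were lower without overlap, mostly through Actn3 (4.38 to 0.279 CPM), and fibroblast (1.32) and endothelial sums (0.998) overlapped. Of 3 skeletal muscle genes 2 were lower (66.7%) and 1, Acta1, was higher (33.3%). Each of the 3 averaged under 1 CPM in 1 of the lines and could reach the filter only with the other. Of 4 fibroblast genes 2 were higher (50%) and 2 lower (50%), and of 5 endothelial genes 1 (20%) and 2 (40%). The part of these genes' movement in the member values was not tested.

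Integrins, to which the adaptors attach, changed in both lines. In E0771, 3 of 13 were higher (23.1%, against 8.89% of all genes) and 4 lower (30.8%, against 11.7%), and in E0771-LG 2 were higher (15.4%, against 24.3%) and 6 lower (46.2%, against 22.1%). Itga6 was at 7.24, 7.69 and 7.43 in E0771 shCtrl and 5.71, 5.75 and 5.87 in shPTN, and at 6.95, 7.24 and 7.30 and 5.76, 5.74 and 5.82 in E0771-LG. It fell in both lines without overlap, by 1.67 (SE 0.11, adjusted p = 8.79e-06) and by 1.40 (SE 0.11, adjusted p = 2.42e-05). Itga7 rose in both, by 1.63 (SE 0.10, adjusted p = 3.83e-06) from 5.10, 5.21 and 5.09 to 6.80, 6.65 and 6.83 in E0771, and by 0.98 (SE 0.17, adjusted p = 0.00123) from 3.83, 4.39 and 4.17 to 4.93, 5.02 and 5.38 in E0771-LG. Itgb7 went down in E0771 (−0.74, SE 0.08, adjusted p = 0.000249) and up in E0771-LG (1.17, SE 0.15, adjusted p = 0.000192), and the effects differed (1.91, SE 0.18, adjusted p = 9.25e-06). Itga3 fell only in E0771-LG (−1.02, SE 0.12, adjusted p = 0.00015), from 6.71, 7.02 and 7.03 to 5.78, 5.85 and 6.07. Itga2 fell in both (−1.66 and −1.28), and Itga1 (1.14) and Itgb4 (0.67, adjusted p = 0.0276) rose in E0771. Single libraries ended the E0771 calls of Itga2 (adjusted p = 0.0721 without shCtrl 2, 0.0599 without shCtrl 3) and Itgb4 (0.0666 without shCtrl 2, 0.11 without shCtrl 3, 0.0521 without shPTN 1, 0.137 without shPTN 3).

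Focal adhesion adaptors and kinases outside the members were more often lower than higher in E0771-LG. Of 43 tested, 15 were lower (34.9%, against 22.1% of all genes) and 7 higher (16.3%, against 24.3%; median −0.18, all genes 0.05), while in E0771 7 were lower (16.3%, against 11.7%) and 10 higher (23.3%, against 8.89%; median 0.07, all genes −0.03). The interaction term was called for 13 of 45 (28.9%, against 34% of all genes), all 13 with the lower effect in E0771-LG (15.7% of all genes). Ptk2b, the relative of FAK, fell in E0771 by 1.23 (SE 0.19, adjusted p = 0.00168), from 4.39, 5.17 and 4.97 to 3.51, 3.59 and 3.76, and in E0771-LG by 1.02 (SE 0.16, adjusted p = 0.000636), from 4.25, 4.23 and 4.22 to 3.13, 3.42 and 3.09. Pak2 also fell in both (−0.76, SE 0.08, adjusted p = 0.000212, and −0.98, SE 0.11, adjusted p = 8.19e-05). Fhl2 (1.07, SE 0.17, adjusted p = 0.00168), Fblim1 (0.82, SE 0.12, adjusted p = 0.000965) and Actn3, also counted above among skeletal muscle genes (1.52, SE 0.21, adjusted p = 0.000892), rose in E0771. Sorbs3 (0.81), Pdlim2 (0.60) and Nexn (0.87, lost at adjusted p = 0.0685, 0.0664 and 0.0595 without shPTN 1, 2 and 3) rose in E0771-LG, where Ptpn11 fell (−1.01, SE 0.10, adjusted p = 6.95e-05), and Yes1 fell in E0771 (−0.65, SE 0.10, adjusted p = 0.00161). Sorbs3 (0.64) and Pdlim2 (0.53) were also called higher in E0771, and Ptpn11 (−0.31) was called lower there.

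Actin nucleation and filament proteins were mixed. Of the Arp2/3 complex and its activators, 4 of 21 were higher (19%, against 8.89% of all genes) and 2 lower (9.52%, against 11.7%) in E0771, and 7 higher (33.3%, against 24.3%) and 8 lower (38.1%, against 22.1%) in E0771-LG. Arpc3, a subunit of the complex, was at 6.94, 7.40 and 7.23 in E0771-LG shCtrl and 8.06, 8.22 and 8.05 in shPTN, without overlap, and rose by 0.92 (SE 0.12, adjusted p = 0.000224). Arpc1a rose in both lines (0.64, SE 0.12, adjusted p = 0.00388, and 0.50, SE 0.11, adjusted p = 0.00396). The activator subunits Abi2 (−0.81) and Nckap1 (−0.80, SE 0.09, adjusted p = 0.000131) fell in E0771-LG, and Abi1 fell in both (−0.45 and −0.49). Hcls1 rose in E0771 (1.75, SE 0.44, adjusted p = 0.0168) and fell in E0771-LG (−1.16, SE 0.31, adjusted p = 0.011), but the first call was lost without shCtrl 2 (adjusted p = 0.0535) or shPTN 3 (0.0763) and the other without shCtrl 3 (0.0568). Smaller changes were called for Cttn (−0.29) and Wasl (0.37) in E0771 and for Arpc1b (0.57) in E0771-LG. They were lost without some libraries: Cttn without shCtrl 3 (0.0859) and shPTN 3 (0.079), Wasl without shCtrl 2 (0.0645), shCtrl 3 (0.0602) and shPTN 3 (0.105), and Arpc1b without shPTN 1 (0.0556), 2 (0.0733) and 3 (0.0652). In E0771-LG Wasl rose as well (0.34, SE 0.10, adjusted p = 0.0217).

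Capping, severing, bundling and monomer-binding genes had 5 of 32 higher (15.6%, against 8.89% of all genes) and 5 lower (15.6%, against 11.7%) in E0771, and 9 of 33 higher (27.3%, against 24.3%) and 9 lower (27.3%, against 22.1%) in E0771-LG. Lcp1, the bundling protein plastin, was at 1.43, 2.07 and 1.36 in E0771 shCtrl and 4.17, 4.26 and 3.93 in shPTN, and at 6.25, 6.31 and 6.11 and 7.0, 7.22 and 7.35 in E0771-LG. It rose in both without overlap, by 2.50 (SE 0.23, adjusted p = 7.84e-05) and 0.97 (SE 0.11, adjusted p = 0.000134). Tmsb10, which holds actin monomers, rose in E0771-LG by 1.08 (SE 0.14, adjusted p = 0.000427), from 9.17, 9.72 and 9.63 to 10.45, 10.76 and 10.55, with no overlap. Scin, a severing protein, went from 1 read in all E0771-LG shCtrl libraries to 162 in shPTN, a ratio of 159 (95% counting interval 28.1 to 6.31e+03). Scin reached the filter through the shPTN samples alone. Cotl1 rose in E0771 (0.48, SE 0.11, adjusted p = 0.0136) and fell in E0771-LG (−0.89, SE 0.20, adjusted p = 0.00423). Eps8l2 fell in E0771 (−0.70, SE 0.13, adjusted p = 0.00451) and rose in E0771-LG (0.56, SE 0.16, adjusted p = 0.0151), and the effects differed (1.26, SE 0.20, adjusted p = 0.000436). Capg (−0.90, SE 0.11, adjusted p = 0.000563) and Svil (−0.66, SE 0.13, adjusted p = 0.00509) fell in E0771. Cfl2 rose there (0.72, SE 0.11, adjusted p = 0.00129) and in E0771-LG (0.44, SE 0.11, adjusted p = 0.00789), and in E0771 so did Coro1a (0.94, SE 0.24, adjusted p = 0.0187), which lost its call without shCtrl 1 (0.0534) or shPTN 3 (0.0551), and Capza1 (−0.70) and Rdx (−0.56) fell in E0771-LG.

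Some genes outside these lists also changed. Arhgap35 was at 7.97, 7.86 and 8.12 in E0771-LG shCtrl and 6.85, 6.43 and 6.53 in shPTN. It fell by 1.38 (SE 0.12, adjusted p = 3.53e-05), with no overlap, and the effect differed from that in E0771 (−1.50, SE 0.17, adjusted p = 3.25e-05). Rhob was at 8.85, 9.22 and 9.20 and 8.27, 8.28 and 8.21 in E0771 and at 8.91, 8.77 and 8.66 and 9.51, 9.67 and 9.78 in E0771-LG. It fell by 0.83 in E0771 (SE 0.10, adjusted p = 0.000472) and rose by 0.87 in E0771-LG (SE 0.10, adjusted p = 0.000117), the groups apart in both. The cofilin regulators Tesk1 (−1.29, SE 0.17, adjusted p = 0.000228) and Ssh2 (−1.22, SE 0.13, adjusted p = 9.51e-05) fell in E0771-LG. Rnd3 rose in E0771 (0.64) and fell in E0771-LG (−0.69) and Vav1 rose in E0771 (0.87, SE 0.15, adjusted p = 0.00262), as did Cdc42ep2 (0.87, SE 0.18, adjusted p = 0.00614), which also rose in E0771-LG (0.85, SE 0.26, adjusted p = 0.0217). Daam1 fell in E0771 (−0.73, SE 0.15, adjusted p = 0.00716). In E0771-LG, Rac2 (2.04, SE 0.39, adjusted p = 0.00266) and Rnd2 (1.01, SE 0.21, adjusted p = 0.00294) rose.

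Myosins and their regulators outside the members had 2 of 20 higher and 3 lower in E0771 (25% called, against 20.6% of all genes), and 4 of 19 higher and 5 lower in E0771-LG (47.4%, against 46.4%). Ppp1r12b, a subunit of the phosphatase that acts on myosin light chains, was at 4.50, 3.65 and 3.70 in E0771 shCtrl and 5.10, 5.68 and 5.32 in shPTN, and at 5.60, 5.20 and 5.65 and 4.61, 4.00 and 4.04 in E0771-LG. It moved as Myl9 did, up by 1.42 in E0771 (SE 0.23, adjusted p = 0.00256) and down by 1.27 in E0771-LG (SE 0.19, adjusted p = 0.00045), without overlap in either. Cald1, which encodes caldesmon, rose by 0.78 in E0771 (SE 0.09, adjusted p = 0.000279), from 7.80, 7.90 and 7.77 to 8.50, 8.75 and 8.57, and fell by 0.40 in E0771-LG (SE 0.12, adjusted p = 0.0213). Myl6, the essential light chain, rose by 0.91 in E0771-LG (SE 0.11, adjusted p = 0.000164), from 8.05, 8.12 and 8.42 to 9.05, 9.23 and 9.02, without overlap. Myo5a (−0.61) fell in E0771, and Myo1c (−0.47) and Ppp1cb (−0.55) fell in E0771-LG, where Ppp1r14b rose (0.60, SE 0.09, adjusted p = 0.000388). Myo1d fell in E0771 (−2.42, SE 0.77, adjusted p = 0.0479) and rose in E0771-LG (1.33, SE 0.42, adjusted p = 0.0237), on calls lost without E0771 shPTN 1 (0.0515) and without E0771-LG shPTN 1 (0.0689) or 3 (0.0883).

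In 4T1 tumors, no member was called after 3B10. By limma 0 of 41 members and 0% of 11467 genes passed, and before adjustment 1 member and 6.27% of all genes had p under 0.05. The median log2 fold change of members was 0.07 and of all genes 0.01, with members from −0.51 to 0.71. The groups did not overlap for 2 members (4.88%, against 11.3% of all genes), 1 below (4.42%) and 1 above (6.87%). An estimate that misses the threshold does not show that there was no difference, and each group held 1 low library. Leaving out both low libraries, which was decided after seeing the data, gave no member call by limma, while the unadjusted p of limma was under 0.05 for 5 members (12.2%, against 16% of all 11416 genes), which were Pfn1 (0.46, adjusted p = 0.205), Tpm1 (0.41, adjusted p = 0.216), Tpm2 (0.78, adjusted p = 0.226), Cnn2 (0.43, adjusted p = 0.216) and Diaph1 (−0.31, adjusted p = 0.282).

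**Figure D5:**
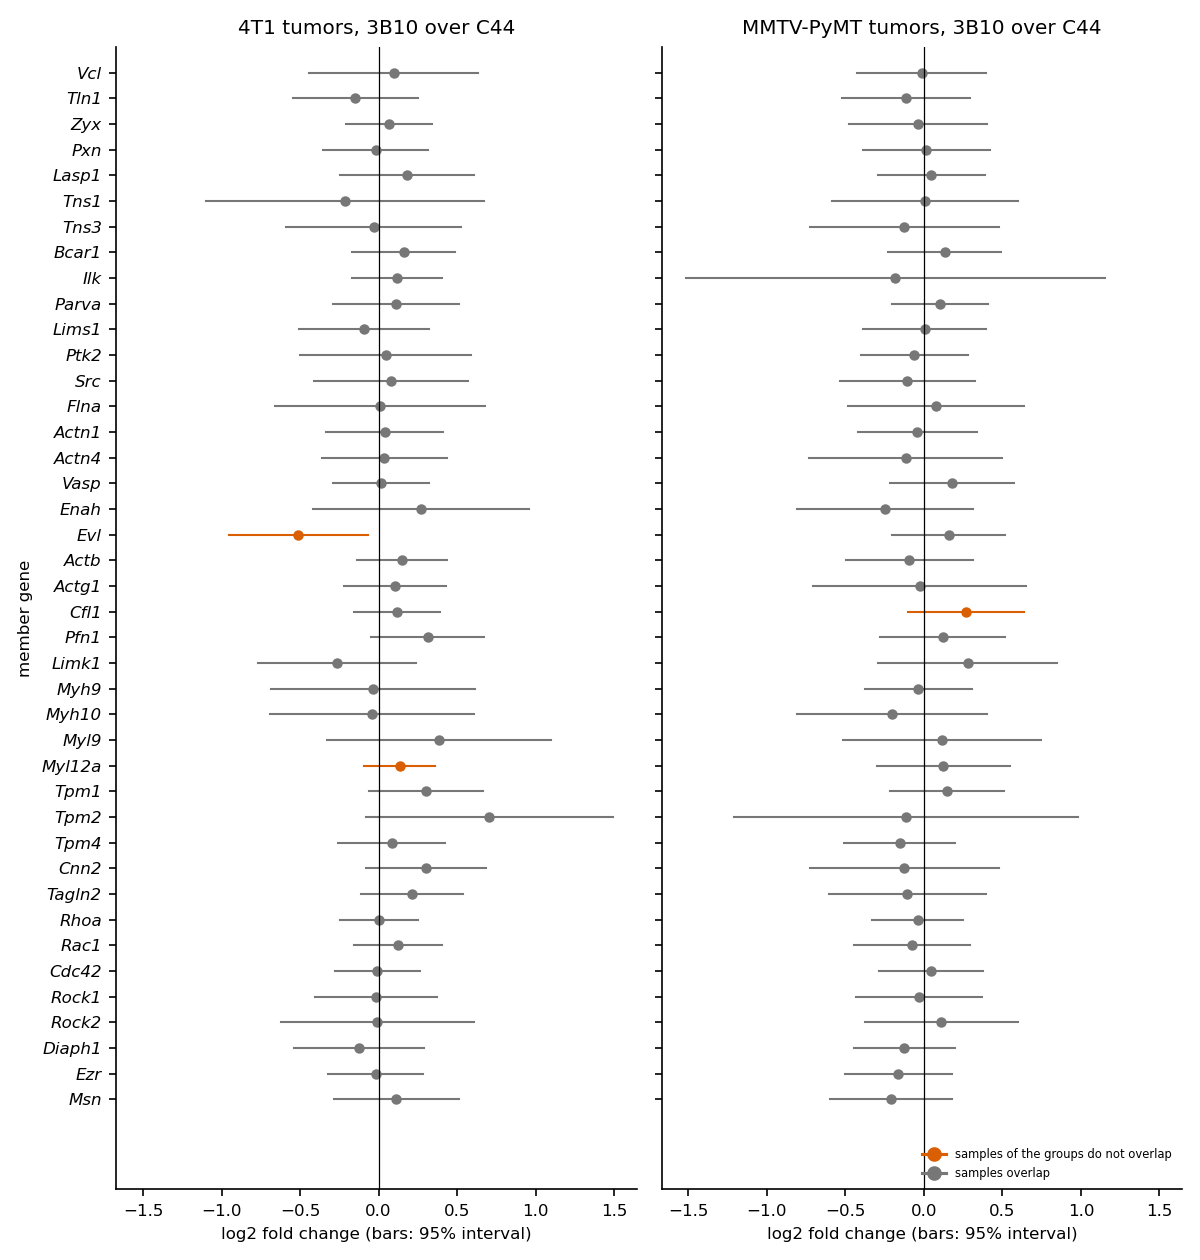
Log2 fold change of each member, 3B10 over C44 (horizontal axes), with 95% intervals as bars, in 4T1 and MMTV-PyMT tumors. Orange marks members whose samples do not overlap, which are Evl (−0.51) and Myl12a (0.13) in 4T1 and Cfl1 (0.27) in MMTV-PyMT.

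The members nearest to a change in 4T1 were few. Evl was at 5.31, 5.38 and 5.51 with C44 and 4.89, 5.24 and 4.54 with 3B10, with all 3B10 samples lower and the one unadjusted p under 0.05 (−0.51, SE 0.19, adjusted p = 0.725). Myl12a, at 8.54, 8.51 and 8.53 and 8.65, 8.64 and 8.68, was higher in 3 of 3 (0.13, SE 0.10, adjusted p = 0.902). Tropomyosin, calponin and transgelin genes had a median of 0.30 with 5 of 5 estimates above 0, led by Tpm2, at 4.92, 5.18 and 4.31 and 4.86, 6.08 and 5.58 with overlap (0.71, SE 0.34, adjusted p = 0.835). Estimates were below 0 for 14 of 41 members (34.1%) and for 48.4% of all genes. Vcl was at 6.54, 6.60 and 5.96 and 6.06, 6.65 and 6.68, and Tln1 at 7.13, 7.21 and 6.82 and 6.61, 7.11 and 7.0. Both overlapped (Vcl 0.10, SE 0.23, adjusted p = 0.982). Actb was at 11.66, 11.75 and 11.92 and 11.85, 11.95 and 11.98, and Actg1 at 5.80, 5.96 and 5.54 and 5.84, 5.94 and 5.83, and neither was called (Actb 0.15, SE 0.12, adjusted p = 0.924).

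Sums of 3 of the 6 lists of cell-type genes did not overlap between the 4T1 groups, though no gene of them was called. Skeletal muscle genes were at 35.8, 32.5 and 65 with C44 and 91.8, 274 and 454 with 3B10, a ratio of 6.15 without overlap, with 8 of 8 tested genes at an unadjusted p under 0.05. Of the 8, Acta1 (0.752), Tnnc2, Atp2a1 and Actn3 averaged under 1 with C44 and could reach the filter only with the 3B10 samples. Mylpf also needed them, since its lowest C44 value was 0.997. Leukocyte genes went from 1.26e+04, 9.46e+03 and 1.22e+04 to 6e+03, 8.86e+03 and 5.92e+03 (0.607, 12 of 18 unadjusted, most abundant Lyz2), and epithelial genes from 3.59e+03, 4.04e+03 and 4.01e+03 to 5.57e+03, 5.45e+03 and 5.62e+03 (1.43, 6 of 12, most abundant Krt18). Smooth muscle genes, which share the contractile program of the members, overlapped (631, 787 and 284, then 405, 865 and 583, most abundant Tagln), as did fibroblast (1.47) and endothelial genes (0.855). By limma 0 genes of any of these lists were called, and the lists of other adhesion and actin genes had 0 called as well, with 6 of 47 adaptors (12.8%), 3 of 16 integrins (18.8%), 0 of 22 for Arp2/3, 1 of 34 filament proteins (2.94%), 0 of 21 for myosin and 0 of 4 for SRF at an unadjusted p under 0.05 (6.27% of all genes). The part of cell-type genes in the member values was not tested.

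In MMTV-PyMT tumors, no member was called either. Limma passed 0 of 41 members and 0% of 11361 genes, and 0 members and 2.7% of all genes had an unadjusted p under 0.05. Estimates ran from −0.25 to 0.28, with a median of −0.04 for members and 0.05 for all genes. One member (2.44%, against 8.34% of all genes) had groups that did not overlap, with 3B10 above (6.06% of genes, and 2.27% below). This was Cfl1, at 8.80, 8.88 and 8.60 with C44 and 8.89, 8.96 and 9.24 with 3B10, higher in 3 of 3 (0.27, SE 0.16, adjusted p = 1).

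The core genes overlapped in MMTV-PyMT. Vcl was at 5.82, 6.46 and 6.14 with C44 and 6.16, 6.05 and 6.15 with 3B10 (−0.02, SE 0.18), and Tln1 at 8.03, 8.07 and 7.65 and 7.91, 7.96 and 7.54 (−0.11, SE 0.18). Actb was at 10.99, 11.04 and 10.86 and 11.04, 10.84 and 10.74, and Actg1 at 11.02, 10.96 and 11.30 and 11.06, 10.51 and 11.64, where 3B10 replicates of Actg1 lay on both sides of the controls. Sums of cell-type genes overlapped for all 6 lists, at ratios of 0.906 for smooth muscle, 0.609 for skeletal muscle, 0.834 for fibroblast, 0.977 for endothelial, 0.997 for leukocyte and 0.903 for epithelial genes. By limma 0 genes of the other adhesion and actin lists were called, with 1 of 47 (2.13%), 0 of 17, 1 of 22 (4.55%), 2 of 34 (5.88%), 0 of 21 and 0 of 4 at an unadjusted p under 0.05 in the order given for 4T1 (2.7% of all genes). Whether the effect of 3B10 differed between the tumors gave 0 calls by limma among 41 members and 0% of 11944 genes, with 1 member, Evl (0.67, SE 0.25, adjusted p = 1), and 2.68% of all genes at an unadjusted p under 0.05.

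The data hold RNA alone, so protein levels, phosphorylation of myosin light chains and adhesions themselves were not measured. Each knockdown used 1 shRNA and 1 population, and an effect of the construct apart from Ptn was not tested.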

How the data were processed

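RNA of 24 samples, 3 in each of 8 groups, was measured by the authors with HISAT2, featureCounts, limma and edgeR on mm10 (versions not given). The authors deposited 1 table of log2 values; the step that made them was not named. Outside 4T1 the deposited log2 values were CPM with an offset of 0.5 reads, and whole reads were recovered from them. Values were used as deposited. Each experiment was fitted with limma 3.58.1 in R 4.3.3 (lmFit, eBayes with trend and robust) on genes that reached 1 on the linear scale in 3 or more of the fitted samples, with Benjamini-Hochberg adjustment over all of them, and differences between experiments were tested as interaction terms. Tables and plots were made in Python 3.11.15 with numpy 2.4.6, pandas 2.3.3 and matplotlib 3.10.9. Gene positions were from GENCODE and promoters from RefSeq. The fitting was tested on simulated data.

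All 41 members were counted. Values in each sample were given for up to 6 members in each direction with the largest called change and no overlap in each cell-line comparison, up to 3 in each direction without overlap in each tumor comparison, the 4 largest interaction terms, and always Actb, Actg1, Vcl, Tln1 and Ptn. From each list of other genes (adhesion adaptors and kinases, integrins, Arp2/3, filament proteins, myosin, SRF) up to 3 in each direction were named, though 1 further list as a whole and some genes picked this way are not reported here, and 6 lists of cell-type markers were summed. Members and lists were chosen with earlier results of these data known.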

Additional observations from a re-analysis of the deposited data

Results flagged for a closer look

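For 15 members the knockdown effect differed between E0771-LG and E0771 by the limma interaction term (adjusted p under 0.05). The effect was lower in E0771-LG for Myl9 (−4.34), Enah (−3.14), Vcl (−1.52), Lasp1 (−1.22), Tpm1 (−1.08), Parva (−0.98), Tns3 (−0.80), Actn1 (−0.77), Bcar1 (−0.59), Diaph1 (−0.48), Ptk2 (−0.43) and Pxn (−0.33). It was higher in E0771-LG for Limk1 (0.48), Ezr (0.59) and Tagln2 (0.71). Enah rests on 8 reads in all E0771 shCtrl libraries, was too low to be tested in E0771 alone and reached the filter through E0771-LG.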

How the results depend on the processing

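Of 114 results for named genes that were called, 635 of 696 values with 1 library left out and 1086 of 1129 values under other settings kept the call, and no direction turned. The 4T1 scale is not stated, each group has 3 samples, and each line has 1 construct. The cause of these dependences was not tested.

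Counts of called members in the cells that differed from the main fit were as follows, whether or not they moved by more than 1.5 times. E0771 lower members (7) were 9 under quantile normalization, 4 with all samples in 1 fit, 8 with the replicate block, 11 with the replicate block and a length and GC correction, 4 at an adjusted p under 0.01, and 4 to 8 with 1 library left out. E0771 higher members (9) were 3 in 1 fit, 10 with the block, 8 with the block and correction, 3 at 0.01 and 3 to 10 left out. E0771-LG higher members (4) were 2 with no filter, 3 under median-of-ratios scaling, 1 in 1 fit, 2 with the block and correction, 1 at 0.01 and 1 to 3 left out, and lower members (13) were 15 under median-of-ratios scaling and quantile normalization, 12 in 1 fit, 14 with the block, 17 with the block and correction, 11 at 0.01 and 11 to 19 left out. Control lines had 6 lower, and 7 with no filter, 5 with the stricter filter, 4 under median-of-ratios scaling, 10 under quantile normalization, 8 without robust eBayes and with the block, 9 with the block and correction, 3 at 0.01 and 3 to 9 left out. They had 13 higher, and 12 with the stricter filter and under quantile normalization, 15 under median-of-ratios scaling, 10 in 1 fit, 11 without robust eBayes and with the block, 9 at 0.01 and 8 to 12 left out. The share of lower calls among all control-line calls was 64.7% and became 49.9% under median-of-ratios scaling and 48.5% under quantile normalization. Interaction terms had 12 lower (13 with no filter and under median-of-ratios scaling, 11 with the stricter filter, under quantile normalization and with the block, 8 in 1 fit, 14 with the block and correction, 9 at 0.01, 10 to 17 left out) and 3 higher (2 in 1 fit, under quantile normalization, with the block and correction and at 0.01; 2 to 5 left out).

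Estimates near 0 changed sign in genes that were not called. With 1 library left out, 4T1 Actg1 ran from −0.0090 to 0.20 and Vcl from −0.11 to 0.30; MMTV-PyMT Actg1 from −0.31 to 0.25, Tln1 from −0.25 to 0.0179 and Vcl from −0.18 to 0.15; E0771 Actb from −0.0140 to 0.17 and Tln1 from −0.10 to 0.0773; E0771-LG Tln1 from −0.51 to 0.0132; control-line Vcl from −0.0454 to 0.11; the line interaction of Tln1 from −0.49 to 0.0329; and the tumor interaction of Actg1 from −0.42 to 0.15, Tln1 from −0.11 to 0.17 and Vcl from −0.31 to 0.0926. The member median ran from −0.03 to 0.18 in 4T1 and from −0.0699 to 0.0411 in E0771, from −0.0636 to 0.0873 in MMTV-PyMT, from −0.0387 to 0.0304 in the control lines (0.1687 under median-of-ratios scaling) and from −0.18 to 0.0178 in the tumor interaction. Other settings gave 0.12 for Actg1 in MMTV-PyMT and 0.0205 for its tumor interaction (quantile), 0.0096 for Tln1 in E0771 and −0.0003 for its tumor interaction (median of ratios). Ptn was too low to be tested in 4T1, so the sign of its tumor interaction cannot be read; its values ran from −0.43 to 0.38 with 1 library left out and were −0.0109 (median of ratios), −0.38 (quantile) and −0.53 (both low 4T1 libraries left out).

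Replicate numbers were tried as a block, though nothing pairs them. Calls over all genes went from 924 higher and 1216 lower to 1036 and 1414 in E0771 and from 2531 and 2295 to 2634 and 2378 in E0771-LG. Residuals of equal numbers correlated at −0.327, 0.436 and −0.253 in 4T1, −0.036, 0.132 and 0.208 in MMTV-PyMT, −0.027, 0.141 and −0.037 in E0771, 0.158, 0.237 and −0.117 in E0771-LG and 0.167, 0.243 and −0.025 in the control lines. Some samples correlated best with their own number, among them replicates 1 and 2 of E0771-LG and of the control lines, and others did not. With the block and correction Tln1 was 0.0144 in E0771-LG, 0.0796 in the line interaction and −0.0187 in the tumor interaction. Voom weights were not run where 4T1 enters, since no reads could be recovered there.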
